A study of Mus musculus with 9 samples.

Results

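Cholesterol synthesis and its control by SREBP2 were followed through 28 genes in a table of raw gene counts from 9 mouse livers. The genes were the rows whose symbol equalled a listed member, and all 28 were found among 18954 genes, each in a single row. They comprised 9 enzymes from acetyl-CoA to the isoprenoid diphosphates, 11 enzymes from squalene synthase to cholesterol, 4 genes that control SREBP2 and 4 other sterol-responsive genes. All 28 passed the filter on low counts, with 14004 genes tested in all.

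Every liver carried 1 GSDMD-NT knock-in allele (GSDMD-NTki/wt), which encodes the N-terminal, pore-forming part of gasdermin D. The 4 control livers had that allele alone, and the other 5, called Alb-cre livers 1 to 5, also had 1 Alb-cre allele (GSDMD-NTki/wt and Alb-creki/wt), in which the albumin promoter drives Cre recombinase in hepatocytes. All livers were labelled day 42, and the series names a doxycycline-induced model of hepatocyte death with liver fibrosis. The titles call the Alb-cre livers treatment, and the labels do not say which livers came from mice given doxycycline, so the drug cannot be told apart from the genotype. Because Alb-cre without GSDMD-NT was not among the livers, what the Alb-cre allele does and what GSDMD-NT does cannot be told apart. The labels give neither age, sex, litter nor hour of collection and do not say that each liver came from a separate animal, so the p-values speak of sample-to-sample spread that may be technical. Strand-specific libraries were made after removal of ribosomal RNA.

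As background, cholesterol is built from acetyl-CoA through mevalonate, isoprenoids, squalene and lanosterol, and hepatocytes are a major site of the pathway. SREBP2, encoded by Srebf2, is a transcription factor held in the endoplasmic reticulum membrane. When membrane sterol is low, the escort protein SCAP carries it to the Golgi, where it is cut, and the freed part enters the nucleus and switches on the synthesis genes and its own gene. When sterol is plentiful, INSIG1 and INSIG2 hold SCAP in place. INSIG1 is itself an SREBP target, and INSIG2 in liver is made from a transcript that insulin lowers.

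Total counts were 13361093 to 16823506 per liver. Liver identity was clear from the hepatocyte markers, with Alb at 54200 ± 6074 CPM (read counts scaled by library size and TMM factor; SD, n = 4) in controls and 43040 ± 5751 CPM (SD, n = 5) in Alb-cre livers (log2 fold change -0.33 ± 0.20 (SE), adjusted p = 0.271 by edgeR's quasi-likelihood test). Gsdmd, whose row need not count the knock-in, was at 38.8 ± 7.17 CPM (n = 4) and 41.0 ± 7.16 CPM (n = 5). The summed CPM of 7 tested hepatocyte markers ran from 70450 to 87190 in controls and from 53370 to 69390 in Alb-cre livers, without overlap. Most of that sum was Alb, which itself overlapped, with 47110 CPM in control 4 and 50150 CPM in Alb-cre 3. Of the 7 markers, 0 were called higher and 1 lower, and 3 had positive estimates. Markers of other cells were called higher in 1 of 8 tested for Kupffer cells and 1 of 7 for endothelium. They were called in 0 of 8 in either direction for stellate cells and lower in 1 of 6 for bile duct cells. The sums of these lists overlapped between the groups. Across all tested genes 9.25% were called higher and 9.07% lower. The Kupffer count was 0 without control 2, 3 or 4 or Alb-cre 1, 3 or 5, and the bile duct count 0 without control 1, 2 or 4 or Alb-cre 1, 3 or 5 and 2 without Alb-cre 2. The endothelial count was 0 without control 1, 3 or 4 or Alb-cre 1 and 3 without Alb-cre 2. All 4 tested B cell markers fell, their sum being 12.4 to 16.3 CPM in controls and 2.62 to 8.39 CPM in Alb-cre livers, and 2 of them fell without control 2 or control 4. Of the T cell, neutrophil and adipocyte lists 1 gene each was tested, of the pancreas and adrenal lists 2 each, and 0 of these were called by edgeR's quasi-likelihood test, though the neutrophil gene was called higher without control 4 or Alb-cre 3 and 1 adrenal gene without Alb-cre 3. The defining adrenal genes Cyp11a1, Cyp11b1 and Mc2r were not analysed here. In whole-tissue RNA, fewer cells of a type and less RNA per cell cannot be told apart.

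Of the 28 genes, 6 rose in Alb-cre livers and 1 fell at an adjusted p under 0.05. The 6 were Pmvk, Idi1, Sqle, Hsd17b7, Dhcr7 and Srebf2, spread along the whole route from mevalonate to the last sterol steps and including the gene of the transcription factor, and the 1 that fell was Sc5d. Across all tested genes 9.25% were called higher and 9.07% lower. With all livers in the fit, the 6 of 28 (21.4%) stood above that background in the upward direction. The 1 of 28 did not in the downward one. The median log2 fold change of the 28 genes was 0.27, beside 0.01 over all tested genes, and 21 of the 28 estimates were positive. The count of 6 rested on single livers: it was 2, 0, 3 and 0 with control 1, 2, 3 or 4 left out, and 1, 4, 8, 7 and 1 with Alb-cre 1, 2, 3, 4 or 5 left out. The count of 1 was 0 without control 2 and 2 without Alb-cre 2. Over all tested genes the share called higher was 8.37%, 3.97% and 4.14% without control 1, 2 or 4. It was 5.44% and 5.79% without Alb-cre 1 or 5, and up to 9.67% without Alb-cre 3. Without control 1, 2 or 4 or Alb-cre 1 or 5, the share of members called higher was thus not above that background. The median fell to 0.05 without Alb-cre 2.

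**Figure D1:**
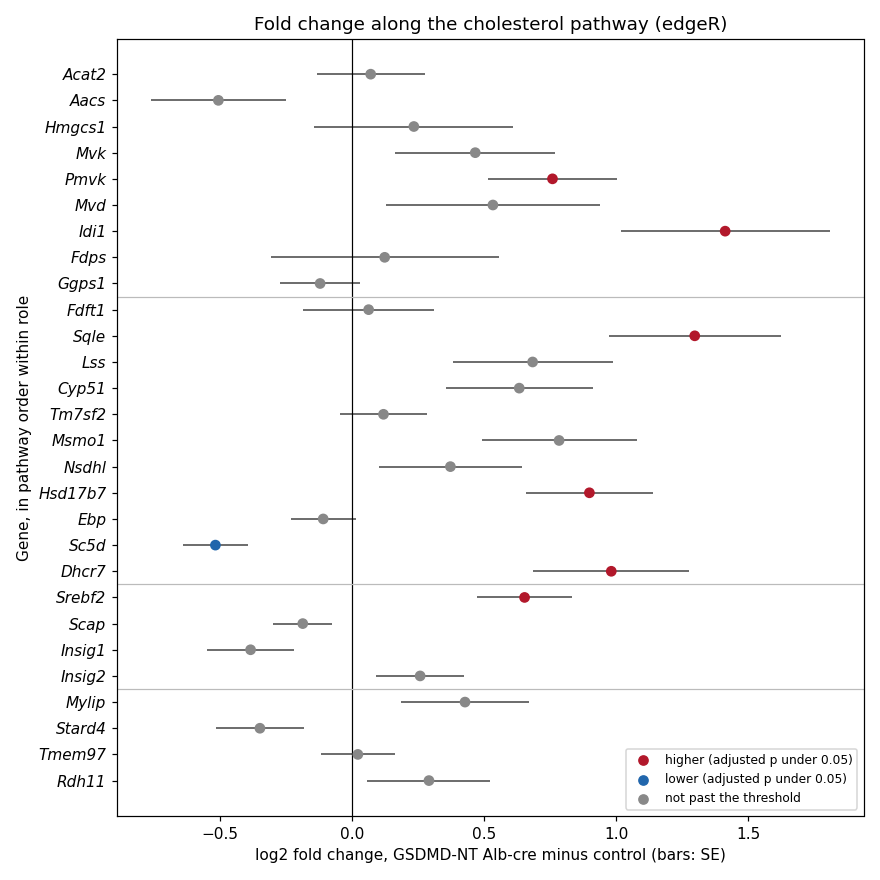
Log2 fold change (GSDMD-NT Alb-cre minus control, x axis) with its SE as a bar for the 28 genes in pathway order within role. The 6 genes that rose are red, Sc5d, which fell, is blue, and the 21 that did not pass an adjusted p of 0.05 are grey.

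The Alb-cre livers did not form a uniform group for these genes. Relative to the control mean, the mean log2 difference over the 28 genes was 0.45 in Alb-cre 1, 0.83 in 2, -0.12 in 3, -0.10 in 4 and 0.25 in 5, while the 4 controls lay between -0.09 and 0.09. Alb-cre 2 therefore stood highest, 1 and 5 stood above every control, and 3 and 4 lay slightly below the lowest control. The distance of Alb-cre 4 from the lowest control is small, and that liver had the highest TMM factor (1.095), which lowers its CPM. These means were not computed without TMM factors. Counted gene by gene, 18 of the 28 genes in Alb-cre 1 lay above the highest control (64.3%, against 27.7% of all tested genes) and 4 below the lowest (14.3%, against 28.7%). In Alb-cre 2 the counts were 20 above (71.4%, against 29.3%) and 1 below (3.57%, against 30.6%). In Alb-cre 5 they were 12 above (42.9%, against 30.9%) and 5 below (17.9%, against 31%). Alb-cre 3 had 3 genes above (10.7%, against 28.3%) and 11 below, a share of 39.3% where 27.5% of all tested genes lay below. Alb-cre 4 had 7 above (25%, against 26.9%) and 12 below (42.9%, against 25.7%). With library totals alone in place of TMM factors, 10 genes lay below in Alb-cre 3 and 9 in Alb-cre 4. The share of all tested genes was not computed for that setting. So the same set of genes lay mostly above the control range in some livers of the group and mostly inside or below it in others.

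**Figure D2:**
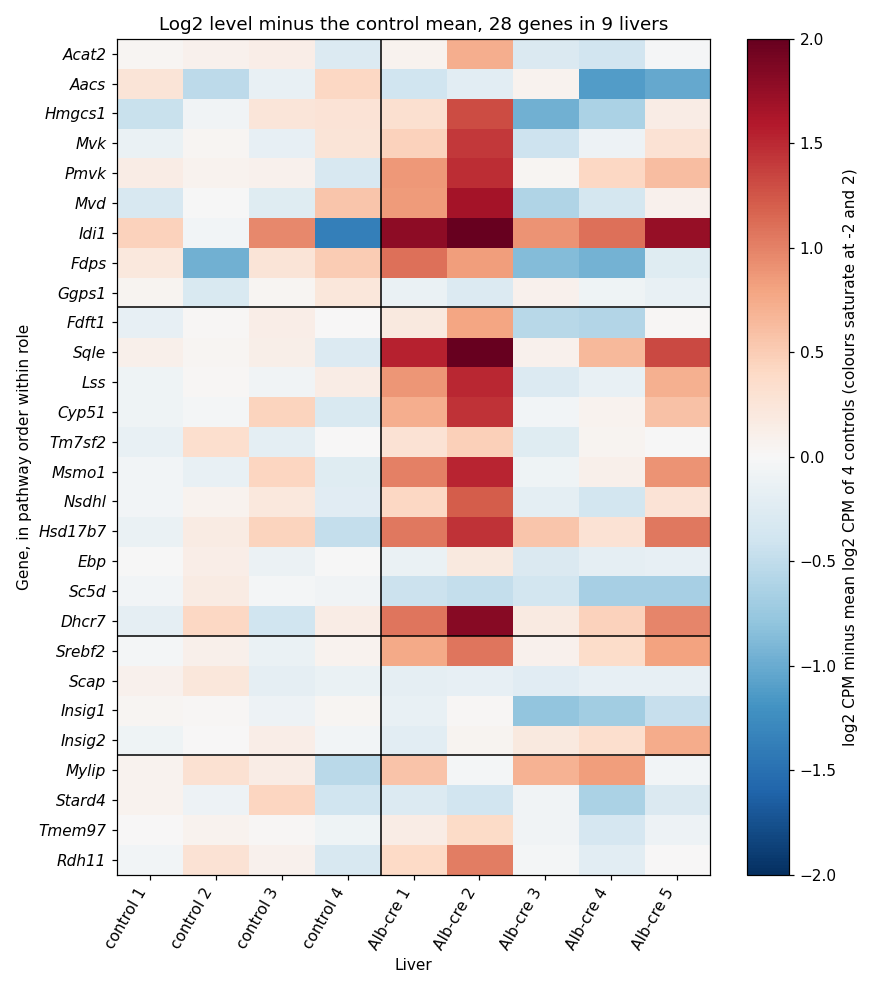
Log2 CPM minus the mean log2 CPM of the 4 controls (colour, saturating at -2 and 2) for the 28 genes (rows, by role) in the 9 livers (columns). Alb-cre 1 and 2 are above the control mean in most rows and Alb-cre 5 in many, Alb-cre 3 and 4 are near or below it in many, and Sc5d is below it in all 5 Alb-cre livers.

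The spread among livers was accordingly wide. In 24 of 28 genes the SD of log2 CPM was larger in the Alb-cre group than in controls, beside 49.2% of all tested genes. Alb-cre 2 was the highest of the 9 livers in 19 of 28 genes, beside 15.4% of all tested genes, and exceeded both Alb-cre 3 and 4 in 21 of 28, beside 36.2%. The highest Alb-cre liver exceeded the lowest by 4.82-fold for Hmgcs1, 4.81-fold for Mvd and 4.07-fold for Sqle, but by 1.05-fold for Scap and 1.24-fold for Sc5d. Several lists ordered the livers in a similar way, by mean log2 difference from controls in Alb-cre 1 to 5. Acute-phase genes were at 2.36, 4.29, 0.17, 1.61 and 3.09, and periportal hepatocyte genes at -0.42, -0.96, -0.19, -0.24 and -0.57. Endoplasmic reticulum chaperone genes were at 0.56, 0.91, 0.30, 0.51 and 0.68, and hepatocyte markers at -0.13, -0.38, -0.06, -0.13 and -0.21. Genes of LXR, a sterol-activated receptor, and its targets were at -0.36, -0.43, -0.04, -0.21 and -0.37. The match was partial, as Alb-cre 4 was at 1.61 for acute-phase genes and at -0.10 for the 28 genes. The part of any of these lists in the spread of the cholesterol genes was not tested.

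The reference promoters of the genes were read because SREBP2 switches on the synthesis genes. Whether all 28 members share that regulator was not tested. A window from 250 bases before to 50 bases after the start was found in RefSeq (build GRCm38.p6) for 24 of the 28 genes, and not for Sqle, Fdft1, Fdps and Stard4. Searched on both strands, CCAAT, the letters bound by NF-Y, was in the windows of 21 of 24 genes (87.5%). It was in those of 42.9% of tested genes with a window and 41.1% of all genes with one. GGGCGG, the letters bound by Sp1, was in 20 of 24 (83.3%), beside 66.5% of tested genes and 38.2% of all genes. Both were in 17 of 24 (70.8%), beside 26.2% of tested genes. The sterol response element was searched as CACCCCAC, TCACNCCAC and TCACCCCA, which overlap one another, the last being added after the windows had been read. These were found in Acat2 (CACCCCAC), in Hmgcs1 (all 3 spellings at 1 place) and in Srebf2 (TCACCCCA). The 3 spellings were thus in 2, 1 and 2 of 24 genes, beside 3.88%, 1.51% and 1.82% of tested genes. Any spelling was in 3 of 24 (12.5%), beside 5.59% of tested genes. A match is a description of the letters only. Exact spellings in this window alone were searched, so a gene without a match may hold a site spelled otherwise or lying elsewhere.

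The windows of 5 genes are printed 5′ to 3′ on the gene's own strand, with the letters of the NF-Y, Sp1 and sterol response element motifs in capitals on either strand, so that NF-Y letters lying on the opposite strand read ATTGG and Sp1 letters lying there read CCGCCC. Hsd17b7 and Srebf2 are shown as the called genes with the smallest adjusted p among those that rose and have a window, and Sc5d as the gene that fell. Hmgcs1 and Insig1 were added after their values were seen, as classic SREBP targets whose counts were not called.
Srebf2, chr15:82147019-82147318, plus strand: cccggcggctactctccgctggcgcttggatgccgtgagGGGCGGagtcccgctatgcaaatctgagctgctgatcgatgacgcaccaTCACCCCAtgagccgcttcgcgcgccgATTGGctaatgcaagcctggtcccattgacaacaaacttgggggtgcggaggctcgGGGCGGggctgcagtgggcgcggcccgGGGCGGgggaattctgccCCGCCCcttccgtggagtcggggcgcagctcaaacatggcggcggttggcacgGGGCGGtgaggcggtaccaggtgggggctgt
Hsd17b7, chr1:169969156-169969455, minus strand: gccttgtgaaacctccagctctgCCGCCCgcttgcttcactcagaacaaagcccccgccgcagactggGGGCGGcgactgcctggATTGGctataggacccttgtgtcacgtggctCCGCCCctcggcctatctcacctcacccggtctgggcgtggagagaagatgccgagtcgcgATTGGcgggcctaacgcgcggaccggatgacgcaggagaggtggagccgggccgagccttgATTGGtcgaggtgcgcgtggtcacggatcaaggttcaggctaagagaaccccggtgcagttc
Sc5d, chr9:42264251-42264550, minus strand: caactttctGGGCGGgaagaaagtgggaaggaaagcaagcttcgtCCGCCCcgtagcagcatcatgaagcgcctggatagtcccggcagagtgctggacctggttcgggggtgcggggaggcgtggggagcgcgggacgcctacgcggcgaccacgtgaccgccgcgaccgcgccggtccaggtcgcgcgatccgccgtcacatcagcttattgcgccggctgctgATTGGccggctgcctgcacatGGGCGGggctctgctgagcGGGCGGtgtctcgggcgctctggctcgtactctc
Hmgcs1, chr13:119690101-119690400, plus strand: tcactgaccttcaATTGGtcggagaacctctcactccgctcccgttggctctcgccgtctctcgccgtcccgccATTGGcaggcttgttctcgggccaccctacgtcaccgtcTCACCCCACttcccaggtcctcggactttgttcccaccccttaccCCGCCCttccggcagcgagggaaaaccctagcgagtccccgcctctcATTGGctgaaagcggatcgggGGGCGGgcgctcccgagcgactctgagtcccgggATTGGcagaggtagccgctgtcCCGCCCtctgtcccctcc
Insig1, chr5:28071162-28071461, plus strand: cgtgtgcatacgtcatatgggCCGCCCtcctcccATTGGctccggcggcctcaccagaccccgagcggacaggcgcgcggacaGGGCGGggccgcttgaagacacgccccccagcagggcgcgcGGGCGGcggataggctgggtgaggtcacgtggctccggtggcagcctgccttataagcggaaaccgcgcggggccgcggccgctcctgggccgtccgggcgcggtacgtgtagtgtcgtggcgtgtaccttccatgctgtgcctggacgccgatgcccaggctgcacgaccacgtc
The window of Sc5d, which fell, and that of Hsd17b7, which rose, both hold CCAAT and GGGCGG letters, at unlike places. Relative to the start, CCAAT letters lie at -24 in Sc5d and at -165, -73 and -12 in Hsd17b7. Neither window holds a sterol response element spelling. Srebf2 and Hmgcs1 each hold one, and Insig1 holds none in this window.

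The first steps make mevalonate and the isoprenoid unit. Acat2, which joins acetyl-CoA units in the cytosol, was between 60.1 and 79.7 CPM in controls and between 55.7 and 120.0 CPM in Alb-cre livers, with a log2 fold change of 0.07 ± 0.20 (SE, adjusted p = 0.835). Hmgcs1, which makes HMG-CoA and whose window carries the sterol response element printed above, measured 166, 216, 270 and 275 CPM in controls 1 to 4 and 284, 562, 117, 146 and 253 CPM in Alb-cre 1 to 5. Alb-cre 1 and 2 were above all controls, 3 and 4 were below all controls, and the groups overlapped. The log2 fold change of Hmgcs1 was 0.23 ± 0.38 (adjusted p = 0.693), and it turned to -0.21 without Alb-cre 2. Mvk, the mevalonate kinase, was at 34.1 ± 4.83 CPM (SD, n = 4) and 47.2 ± 25.7 CPM (n = 5), and 4 of those 5 livers lay between 25.5 and 46.4 CPM. Mvd, which removes the carboxyl group of diphosphomevalonate, ran from 33.0 to 60.9 CPM in controls and from 27.1 to 130 CPM in Alb-cre livers (0.53 ± 0.40, adjusted p = 0.372).

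Pmvk, phosphomevalonate kinase (ENSMUSG00000027952.17), was the first of the enzymes called higher. It measured 35.7, 33.8, 34.2 and 25.8 CPM in controls and 58.8, 89.7, 33.1, 42.8 and 49.5 CPM in Alb-cre 1 to 5. All Alb-cre livers but the third lay above the controls, and that one lay within them. The log2 fold change was 0.76 ± 0.24 (adjusted p = 0.048), close to the threshold. With 1 liver left out, the call held only for Alb-cre 3 or 4, the adjusted p being 0.063 to 0.138 for any other liver. Pmvk also lost its call with upper-quartile factors and with limma-voom. Idi1 (ENSMUSG00000058258.16), which interconverts the isoprenoid isomers, measured 45.6, 31.8, 64.6 and 12.7 CPM in controls and 114, 156, 61.6, 71.3 and 111 CPM in Alb-cre 1 to 5. Again every Alb-cre liver but the third exceeded the highest control, and the controls themselves differed widely. Idi1 had the largest positive log2 fold change of the 28 genes, 1.41 ± 0.40 (adjusted p = 0.0302). It was not called without control 2 (0.0844), control 4 (0.0541), Alb-cre 1 (0.0594) or Alb-cre 5 (0.0553). Reads of Idi1 may be shared with its pseudogene Idi1-ps1, which was at 0.259 CPM in controls and 1.40 CPM in Alb-cre livers on average.

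Fdps, which makes farnesyl diphosphate, measured 14.2, 6.20, 14.6 and 17.3 CPM in controls and 26.3, 21.97, 6.63, 6.26 and 10.3 CPM in Alb-cre livers. It was high in Alb-cre 1 and 2 and low in 3, 4 and control 2, with overlapping groups (0.12 ± 0.43, adjusted p = 0.866). In the GENCODE M21 annotation 26.7% of its exon bases are shared with a neighbouring gene on the same strand, so its level is uncertain. Ggps1, which turns farnesyl into geranylgeranyl diphosphate away from sterols, stayed between 7.23 and 10.5 CPM in all 9 livers (-0.12 ± 0.15, adjusted p = 0.597). Aacs, which activates acetoacetate and can feed the pathway from ketone bodies, measured 166, 96.6, 126 and 186 CPM in controls and 105, 121, 147, 64.3 and 68.6 CPM in Alb-cre 1 to 5. It was lowest in Alb-cre 4 and 5, and the groups overlapped (-0.51 ± 0.26, adjusted p = 0.179). Over the 9 genes of this arm 2 rose and 0 fell (22.2% called, beside 18.3% of all tested genes), with a median log2 fold change of 0.23.

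In the sterol arm, from squalene synthase to cholesterol, 3 of 11 enzymes rose and 1 fell (36.4% called, beside 18.3% of all tested genes). The median log2 fold change of this arm was 0.63. Fdft1, squalene synthase, measured 159, 183, 197 and 179 CPM in controls and 204, 311, 122, 119 and 182 CPM in Alb-cre 1 to 5. Like Hmgcs1, it was above all controls in Alb-cre 1 and 2 and below all controls in 3 and 4 (0.06 ± 0.25, adjusted p = 0.881). In the GENCODE M21 annotation 18.3% of Fdft1 exon bases are shared with Ctsb on the opposite strand. Ctsb was at 767 CPM in controls and 677 CPM in Alb-cre livers. The strand setting of the counting is not known, so the level of Fdft1 is uncertain. Sqle, squalene epoxidase (ENSMUSG00000022351.15), a rate-limiting enzyme of this arm, measured 85.9, 82.4, 86.5 and 66.3 CPM in controls and 233, 343, 84.4, 125 and 200.3 CPM in Alb-cre 1 to 5. The controls were tight, Alb-cre 3 lay inside them, and the other 4 lay well above. Mean levels were 80.3 ± 9.50 CPM (SD, n = 4) and 197 ± 101 CPM (SD, n = 5), a rise of 1.30 ± 0.33 on the log2 scale (adjusted p = 0.0203). The call was lost without control 2 (0.0549) or control 4 (0.0687).

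Lss, Cyp51 and Msmo1 had positive estimates that did not pass. Lss, which closes the ring to lanosterol, measured 69.6 to 82.0 CPM in controls and 137, 211, 61.7, 67.3 and 121 CPM in Alb-cre 1 to 5 (0.68 ± 0.30, adjusted p = 0.131), and was called without Alb-cre 3 (0.043). Cyp51, the lanosterol demethylase, measured 124 to 207 CPM in controls and 254, 416, 148, 160.1 and 229 CPM in Alb-cre livers (0.63 ± 0.28, adjusted p = 0.127). Msmo1, the sterol methyl oxidase, measured 114 to 181 CPM in controls and 270, 383, 126, 144 and 248 CPM in Alb-cre livers. In each of these, Alb-cre 1, 2 and 5 were above all controls and 3 and 4 were not. The estimate for Msmo1 was 0.78 ± 0.29 (adjusted p = 0.0797), and it was called without Alb-cre 3 (0.0259) or 4 (0.0483) and by DESeq2 (0.0336).

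Further along, Hsd17b7 (ENSMUSG00000026675.13), the ketosteroid reductase of the demethylation steps, measured 51.8, 63.7, 77.4 and 40.6 CPM in controls and 119, 154, 83.2, 69.6 and 118 CPM in Alb-cre 1 to 5. Here Alb-cre liver 4 was the one inside the control range, and liver 3 was just above it. The log2 fold change was 0.90 ± 0.24 (adjusted p = 0.0255), and the call was lost without control 1 (0.0554), 2 (0.0577) or 4 (0.079) or Alb-cre 1 (0.0543) or 5 (0.051). Nsdhl, which acts with it in those steps, ran from 89.4 to 122 CPM in controls and measured 140, 243, 91.3, 80.8 and 127 CPM in Alb-cre livers (0.37 ± 0.27, adjusted p = 0.352). Tm7sf2, a sterol reductase, was at 161 ± 28.1 CPM (SD, n = 4) and 174 ± 33.8 CPM (n = 5), with an adjusted p of 0.640. Ebp, the sterol isomerase, was at 219 ± 15.2 CPM (n = 4) and 203 ± 27.1 CPM (n = 5), with an adjusted p of 0.559. These 2 enzymes overlapped between the groups and had small estimates, 0.12 ± 0.16 and -0.11 ± 0.12.

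The last steps moved in opposite directions. Dhcr7 (ENSMUSG00000058454.16), the reductase that yields cholesterol from its dehydro precursor, measured 89.8, 136, 77.3 and 112 CPM in controls and 214, 358, 115, 140 and 199.8 CPM in Alb-cre 1 to 5. All but Alb-cre 3 exceeded the highest control. It rose by 0.98 ± 0.30 on the log2 scale (adjusted p = 0.039), and the call held only with Alb-cre 3 or 4 left out, the adjusted p being 0.0542 to 0.0895 with any other liver left out. Sc5d (ENSMUSG00000032018.15), the desaturase that makes that precursor, measured 521, 609, 525 and 513 CPM in controls and 399, 390, 421, 343 and 340.1 CPM in Alb-cre 1 to 5. It was the 1 gene of the 28 whose Alb-cre livers all lay below all controls, beside 9.22% of all tested genes. In 0 of the 28 genes did all Alb-cre livers lie above all controls, beside 9.23% of all tested genes (18.5% in either direction). Sc5d fell by 0.52 on the log2 scale (SE 0.12, adjusted p = 0.0164), from 542 ± 45.0 CPM (SD, n = 4) to 379 ± 35.9 CPM (SD, n = 5), and the call was lost without control 2 (0.0609), the highest control. The level of Sc5d did not follow the order of the livers seen for Sqle or Dhcr7: Alb-cre 3, the lowest for those genes, was the highest for Sc5d among the 5.

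The 4 control genes differed from one another. Srebf2 (ENSMUSG00000022463.9) measured 77.8, 85.4, 72.6 and 83.3 CPM in controls and 134, 167, 84.1, 103 and 139 CPM in Alb-cre 1 to 5. Alb-cre 3 lay inside the control range and the other 4 above it. Srebf2 rose by 0.65 ± 0.18 on the log2 scale (adjusted p = 0.0277), from 79.8 ± 5.76 CPM (SD, n = 4) to 126 ± 32.4 CPM (SD, n = 5). The call held without Alb-cre 2, 3 or 4, and the adjusted p was 0.0577 to 0.0641 with any other liver left out. Scap, the escort, measured 163, 178, 135 and 139 CPM in controls and 136, 137, 131, 137 and 137 CPM in Alb-cre 1 to 5. The Alb-cre livers were nearly equal, with Alb-cre 3 below the lowest control and the other 4 at the lower end of the control range (-0.19 ± 0.11, adjusted p = 0.260).

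Insig1 and Insig2, the SCAP anchors, were not called. Insig1 measured 335, 332, 302 and 334 CPM in controls and 293, 329, 189, 202 and 235 CPM in Alb-cre 1 to 5. All but Alb-cre 2 lay below the lowest control, and the estimate was -0.38 ± 0.17 (adjusted p = 0.123), which was called lower without Alb-cre 2 (0.0382). Insig2 measured 83.7, 89.1, 96.5 and 84.9 CPM in controls and 76.6, 91.9, 101, 111 and 148 CPM in Alb-cre 1 to 5. It was above all controls in Alb-cre 3, 4 and 5 (0.26 ± 0.17, adjusted p = 0.298). Within a liver, the ratio of Insig2 to Insig1 counts was 0.249, 0.268, 0.32 and 0.255 in controls and 0.261, 0.279, 0.536, 0.552 and 0.63 in Alb-cre 1 to 5. The first 2 of those Alb-cre livers were inside the control range and the other 3 were above it.

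**Figure D3:**
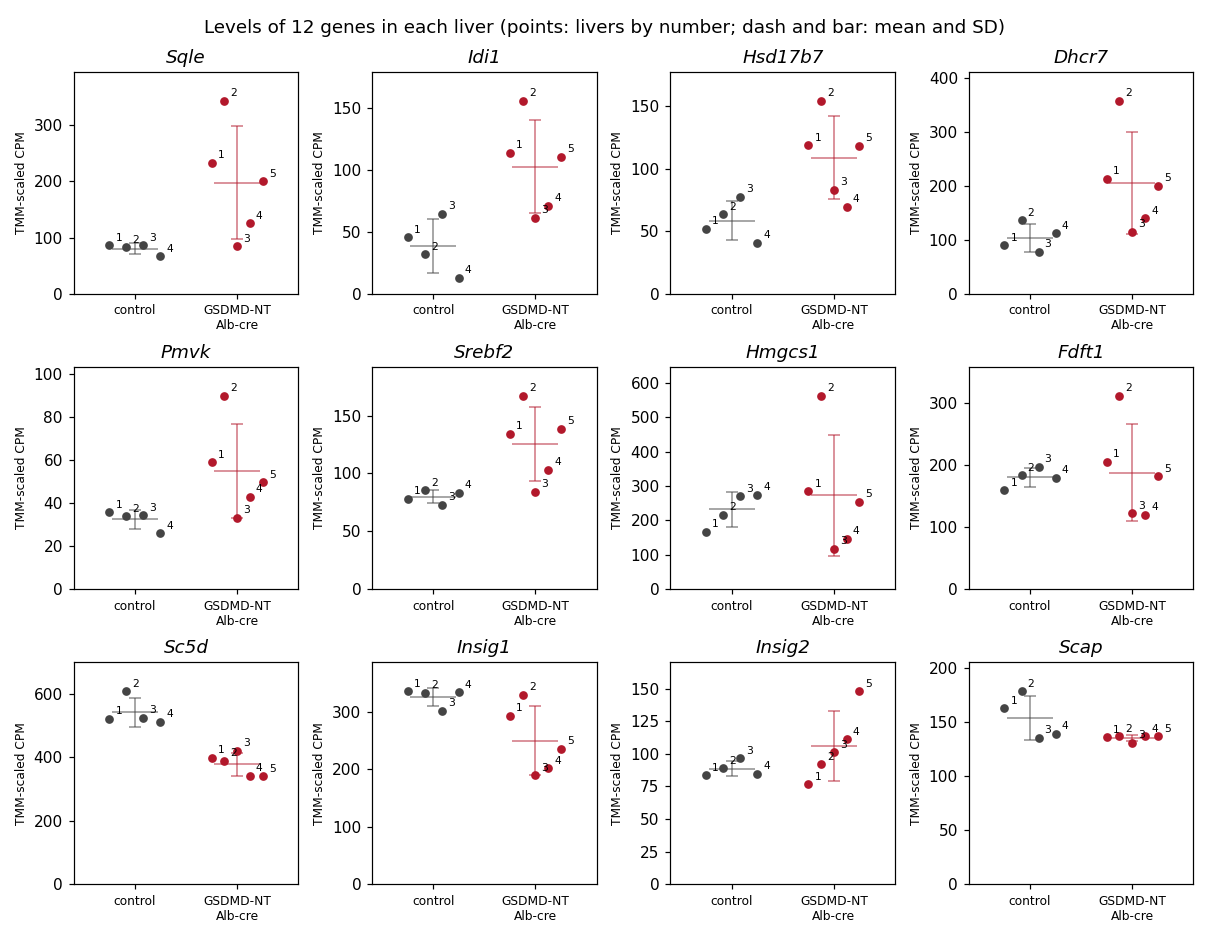
TMM-scaled CPM (y axis, from 0) of 12 genes in 4 control and 5 Alb-cre livers, each point a liver with its number, the dash and bar being the mean and SD. Alb-cre 2 is the highest liver and Alb-cre 3 is near or below the controls for Sqle, Idi1, Dhcr7, Pmvk, Srebf2, Hmgcs1 and Fdft1, whereas all Alb-cre livers lie below the controls for Sc5d and lie close together for Scap.

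Pairs of counts from the same library need no scaling between livers, and 3 more were set side by side without a test. These ratios were chosen after the counts had been seen. Sqle over Fdft1, neighbouring steps, was 0.54, 0.451, 0.439 and 0.369 in controls and 1.14, 1.1, 0.693, 1.05 and 1.1 in Alb-cre livers. Srebf2 over Scap was 0.478 to 0.599 in controls and 0.99, 1.22, 0.644, 0.754 and 1.02 in Alb-cre livers. Sc5d over Dhcr7 was 4.49 to 6.8 in controls and 1.87, 1.09, 3.68, 2.45 and 1.7 in Alb-cre livers. For these 3 ratios every Alb-cre liver, the third included, lay outside the control range, and the third lay nearest to it. Such a ratio shows unequal change and not which of its genes changed. The caution given above on the level of Fdft1 holds for Sqle over Fdft1 too. Each of these 3 pairs holds a gene already called, so the separation adds no further support. The share of other gene pairs that separate the groups was not computed.

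**Figure D4:**
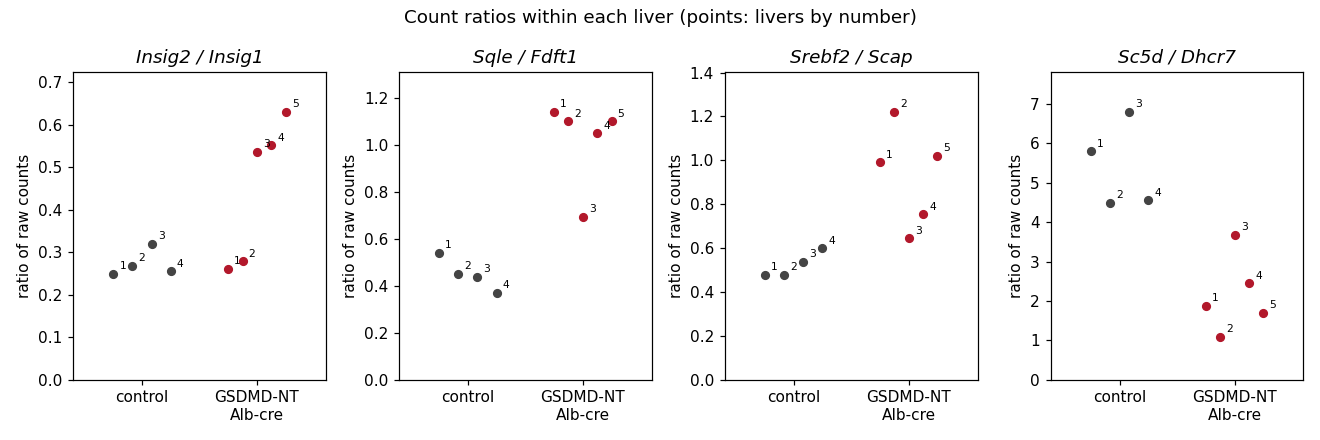
Ratio of raw counts (y axis, from 0, no unit) for 4 gene pairs in each of the 9 livers, each point a liver with its number, 4 controls and 5 with GSDMD-NT and Alb-cre. The groups are apart for Sqle over Fdft1, Srebf2 over Scap and Sc5d over Dhcr7, and overlap for Insig2 over Insig1, where Alb-cre 1 and 2 lie with the controls.

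Of the 4 other sterol-responsive genes, 0 passed the threshold by edgeR's quasi-likelihood test or DESeq2, and 0 had an unadjusted p under 0.05. Tmem97, a sterol-binding membrane protein, measured 131, 137, 133 and 123 CPM in controls and 145, 170.3, 125, 104 and 121 CPM in Alb-cre 1 to 5. It was above all controls in Alb-cre 1 and 2 and below all controls in 4 and 5 (0.02 ± 0.14, adjusted p = 0.930). Rdh11, a retinol dehydrogenase, measured 44.1 to 67.3 CPM in controls and 72.6, 111, 53.1, 47.6 and 55.0 CPM in Alb-cre livers (0.29 ± 0.23, adjusted p = 0.398). Stard4, a cholesterol carrier, was at 121 ± 29.3 CPM (SD, n = 4) and 95.1 ± 13.5 CPM (n = 5), and Mylip, a ubiquitin ligase that is an LXR target, at 5.38 ± 1.26 and 7.21 ± 2.02 CPM. The groups overlapped for these genes too, with adjusted p of 0.157 and 0.234.

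As for levels, the genes were compared per kilobase of exon. In controls the highest was Sc5d at 111 ± 9.25 CPM per kb (SD, n = 4), then Insig1 at 105 ± 5.17, Tmem97 at 95.3 ± 4.28 and Ebp at 94.8 ± 6.59. Sc5d and Insig1 did not differ beyond their SDs, nor did Tmem97 and Ebp, and the SDs of Insig1 and Tmem97 did not overlap. Next came Hmgcs1 at 50.4 ± 11.1 CPM per kb. The lowest were Fdps at 3.11, Ggps1 at 1.92 and Mylip at 1.66 CPM per kb. In Alb-cre livers the order of the first 4 was Tmem97 at 96.7 ± 18.6 CPM per kb (SD, n = 5), Ebp at 87.9 ± 11.7, Insig1 at 80.7 ± 19.4 and Sc5d at 77.8 ± 7.38, again not apart beyond their SDs. Sqle went from place 20 to place 11 and Aacs from place 7 to place 18 in the order of levels.

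Genes around the pathway were read from lists by the same fit, in which 18.3% of all tested genes were called (9.25% higher, 9.07% lower). Of 14 tested genes for SREBP processing and degradation, 3 rose and 0 fell (21.4% called), with a median log2 fold change of 0.22. Ube2g2, a ubiquitin-conjugating enzyme of endoplasmic reticulum degradation, measured 41.3, 30.2, 27.9 and 25.9 CPM in controls and 56.7, 58.3, 47.6, 62.2 and 45.8 CPM in Alb-cre livers (0.79 ± 0.15, adjusted p = 0.00799). All 5 were above all controls, livers 3 and 4 included. Paqr3, which tethers SCAP and SREBP in the Golgi, rose by 1.12 ± 0.28 on the log2 scale (adjusted p = 0.021), from 2.83 ± 1.09 to 6.12 ± 1.39 CPM. The other, Nploc4, a cofactor in extracting proteins from the membrane, rose by 0.64 (adjusted p = 0.0366) and was named after its values were seen. The count was 1 without control 2 or control 4, and 2 without Alb-cre 1 or 5, and Ube2g2 was called with any 1 liver left out.

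Of 16 tested genes that use isoprenoids for other products, 2 rose and 0 fell (12.5% called), with a median of 0.20. Both that rose make dolichol. Nus1 measured 32.2 to 46.8 CPM in controls and 56.1 to 63.3 CPM in Alb-cre livers, without overlap (0.52 ± 0.12, adjusted p = 0.0156), and was called with any 1 liver left out. Its partner Dhdds was at 30.8 ± 5.06 and 44.2 ± 8.35 CPM (0.52 ± 0.16, adjusted p = 0.0417) and was called only without control 1 or Alb-cre 3 when 1 liver was left out. The count was 1 without control 2 or 4 or without Alb-cre 1, 2, 4 or 5 and 4 without Alb-cre 3.

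Genes that store, carry and export sterol were read next. Soat2, which esterifies cholesterol in hepatocytes, measured 97.6, 82.3, 84.5 and 88.8 CPM in controls and 33.5, 50.5, 38.6, 30.8 and 37.3 CPM in Alb-cre 1 to 5. All 5 lay far below all controls, a log2 fold change of -1.21 ± 0.14 (adjusted p = 0.00104) that was called with any 1 liver left out. Of the 17 tested genes of its list, 2 rose and 1 fell (17.6% called), near the 18.3% of all tested genes. Those that rose were Osbp, an oxysterol-binding lipid carrier (0.59 ± 0.14, adjusted p = 0.0182), and Lbr, a nuclear envelope protein that is also a sterol reductase (0.73 ± 0.21, adjusted p = 0.0334). Lbr was not called without control 2 or 4 or Alb-cre 1, 2 or 5, which left a count of 1.

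Of 10 tested genes for LXR, the sterol-activated nuclear receptor, and its targets, 1 rose and 3 fell (40% called), with a median of -0.11. Abcg5, which pumps sterol into bile as part of a dimer, measured 134, 174, 82.8 and 120.3 CPM in controls and 48.4, 36.5, 73.5, 62.6 and 42.4 CPM in Alb-cre livers (-1.28 ± 0.23, adjusted p = 0.00617). The groups did not overlap, and the third liver was nearest to the controls. Its partner Abcg8, named after its values were seen, fell by 1.01 on the log2 scale (adjusted p = 0.021), and Lpcat3, which remodels phospholipids, fell by 0.64 (SE 0.15, adjusted p = 0.0167). Abca1, which exports cholesterol to HDL, was at 98.3 ± 20.9 CPM in controls and rose to 156 ± 18.3 CPM (0.67 ± 0.15, adjusted p = 0.0134). Abcg5 and Abca1 were called with any 1 liver left out. Lpcat3 was not called without control 2, nor Abcg8 without control 2 or Alb-cre 1, and the count of 3 was then 1 without control 2.

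Among 14 tested fatty acid genes that respond to SREBPs, 0 rose and 2 fell (14.3% called), with a median of -0.04. Acss2, which makes acetyl-CoA from acetate, was at 223 ± 30.2 and 153 ± 14.8 CPM (-0.55 ± 0.13, adjusted p = 0.0147), and Elovl5, a fatty acid elongase, at 353 ± 45.2 and 243 ± 19.2 CPM (-0.54 ± 0.12, adjusted p = 0.0146). Neither was called without control 2, which left a count of 0, and 1 gene of the list was called higher without Alb-cre 2.

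**Figure D5:**
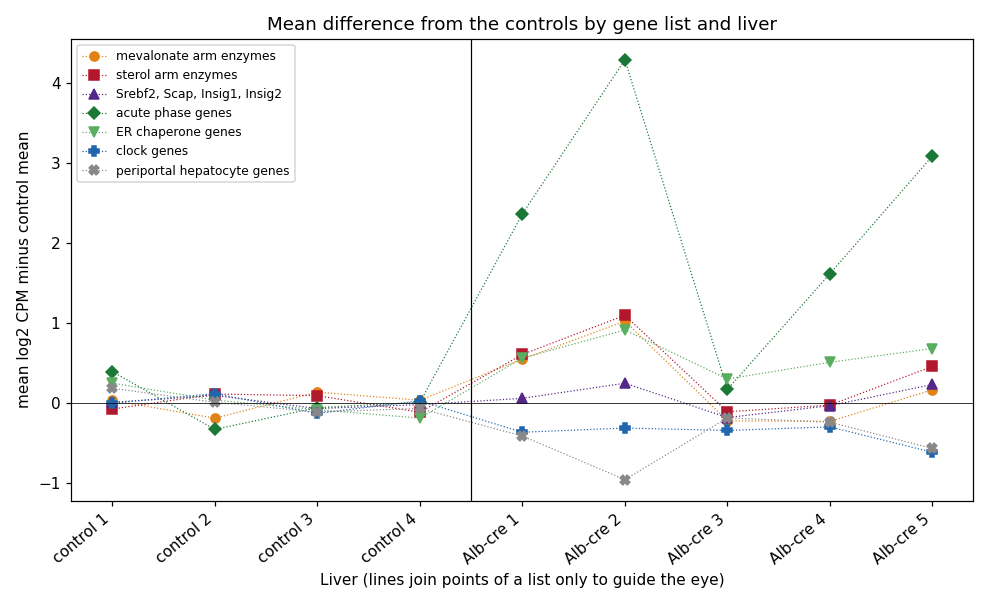
Mean log2 CPM minus the control mean (y axis) in each of the 9 livers (x axis) for the mevalonate arm, the sterol arm, the 4 control genes and 4 lists of other genes, the lines only guiding the eye. Both enzyme arms are highest in Alb-cre 2 and below 0 in Alb-cre 3 and 4, and the acute-phase list reaches 4.29 in Alb-cre 2 and 0.17 in Alb-cre 3.

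Lists known to vary with feeding, hour and stress are given beside these results because the cholesterol genes respond to all 3. Their part in the results was not tested. The share called was 9.09% for feeding-state, 42.9% for clock and 80% for acute-phase genes, beside 18.3% of all tested genes. It was 68.4% for endoplasmic reticulum, 40% for periportal and 11.1% for pericentral genes. Of 11 feeding-state genes, 1 rose, Cpt1a, the gate of fatty acid oxidation in mitochondria (0.64 ± 0.19, adjusted p = 0.0391), which was not called without control 2, 3 or 4 or Alb-cre 1 or 5. Without Alb-cre 1, 1 gene of that list was called lower. Of 14 clock genes, 2 rose and 4 fell, with a median of -0.28, and the 2 became 0 without control 4 and 1 without control 1, 2 or 3 or Alb-cre 5. Nr1d1, the clock repressor, was at 152 ± 50.8 CPM in controls and fell to 41.0 ± 7.32 CPM (-1.89 ± 0.21, adjusted p = 0.000951). In Alb-cre 1 to 5 it measured 37.6, 32.6, 47.2, 50 and 37.5 CPM, all below the lowest control, with the lowest value in Alb-cre 2 and the highest in Alb-cre 3 and 4. Of 20 acute-phase genes 16 rose and 0 fell, a count of 8 without control 2 or control 4 and of 11 to 18 without any other liver. Of 19 genes for endoplasmic reticulum chaperones and stress, 12 rose and 1, Trib3, a stress-induced pseudokinase, fell, and the mean log2 difference of this list was 0.56, 0.91, 0.30, 0.51 and 0.68 in Alb-cre 1 to 5. The count of 12 was 7 without control 4 and 8 without control 2. Of 10 periportal genes 4 fell, a count of 0 without control 1, control 4 or Alb-cre 1, of 1 without Alb-cre 5 and of 2 without control 2 or Alb-cre 2. Of 9 pericentral genes 1 fell, and 0 without control 2, Alb-cre 1 or Alb-cre 5.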

How the data were processed

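RNA was measured in 9 mouse livers, 4 control and 5 with Alb-cre, grouped and numbered by the sample titles. The deposited table held whole-number read counts per gene, made by the authors and not normalized. Per the submitters' processing notes, fastp 0.23.2, HISAT2 2.1.0 and build GRCm39 were used. For the counting tool and its strand setting, the sources used here give nothing.

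Differential expression was computed in R 4.3.3 with edgeR 4.0.16: filterByExpr kept 14004 genes and left out 4950, TMM factors were 0.894 to 1.095, and glmQLFit and glmQLFTest were fitted on group, two-sided. Benjamini-Hochberg adjustment covered all 14004 genes, and a gene was called where its adjusted p was under 0.05. All adjusted p-values printed are from this test unless another is named. CPM were scaled by TMM, log2 differences used a prior count of 2, and a standard error is the absolute log2 fold change over the root of F. The fit was tested on simulated counts. It recovered 13.4% of 1.5-fold, 56.7% of 2-fold and 90.9% of 4-fold changes, with 7 false calls, and made 1 call when no gene changed. A gene that was not called may therefore still differ by 1.5-fold or 2-fold. Totals of at least 13361093 counts per liver leave counting error small beside the spread between livers, except for genes of a few CPM. Livers of the same group differed by more than sampling noise in every pair.

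The table had 0 sample columns left unused. In 354 rows all counts were 0, and 33 rows shared a symbol with another, the lists using the row with the higher expression. Lengths are exon unions from GENCODE M21, on build GRCm38, not the build of the counts, so the only coordinates given are those of the printed promoter windows. Of the 28 genes, 9 share exon bases with another annotated gene, over 20% of them for Fdps alone. Promoter windows are from RefSeq (GRCm38.p6), and the coordinates printed with them are on that build, not on GRCm39.

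The members, the 11 lists of surrounding genes and the 11 marker lists were chosen with earlier results of these data known, and a withheld item is not reported here. The genes named were all 28 members, Alb, Gsdmd and, from each list, up to 2 called genes a direction, taken by smallest adjusted p. Not all are used, and others are said to be chosen after their values were seen. Alternatives were upper-quartile or RLE factors, library totals, no low-count filter, a filter that asked for a CPM of 1 or more in 4 or more livers, DESeq2 1.42.0, limma-voom (limma 3.58.1), a block on the title number and each liver left out. Figures were drawn with matplotlib 3.10.9.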

Additional observations from a re-analysis of the deposited data

Results flagged for a closer look

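Each of the 28 genes was checked in each of the 2 groups, 56 groups of values in all, for a liver that stood apart by Dixon's test at 95%, which chance alone passes in about 1 of 20. In 3 of them a liver stood apart. Sc5d was at 609 CPM in control 2, where the other controls were at 513 to 525 CPM, and the gap to the nearest control was 0.866 of the range of the group. Without that liver Sc5d was not called (adjusted p = 0.0609 by edgeR's quasi-likelihood test). Scap was at 131 CPM in Alb-cre 3, where the other 4 livers lay between 136 and 137 CPM, a gap of 0.815 of a narrow range. Insig1 was at 302 CPM in control 3, where the other controls were at 332 to 335 CPM, a gap of 0.903 of the range.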

How the results depend on the processing

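The median log2 fold change of the members stayed positive, at 0.20 to 0.29 with the other tools, factors and filters and the block, and at 0.05 to 0.37 with 1 liver left out. With 1 liver left out, all genes higher ranged from 567 to 1339 and lower from 625 to 1184, members higher from 0 to 8 and members lower from 0 to 2. Members below the control range in Alb-cre 2 (1 as reported) numbered 3 with upper-quartile factors, 6 with library totals alone, 2 with a filter at 1 CPM in 4 livers and 1 to 3 with 1 liver left out. Those above in Alb-cre 3 ranged from 3 to 5 and those below in 5 from 5 to 8. The title numbers did not pair the livers: deviations of same-numbered livers correlated at 0.049, -0.015, 0.085 and 0.134 across genes. With a replicate block on that number, 923 genes were higher, 819 lower, and of the members 4 higher and 0 lower. For single members, 420 values stayed, 37 lost and 5 gained a call, and 14 changed sign, all of members with no call: Tmem97 to -0.017 with upper-quartile factors, Fdft1 to -0.040 with the block, and Fdps to -0.057 and Fdft1 to -0.024 with limma-voom. With 1 liver left out, log2 fold changes ranged from -0.21 to 0.32 for Fdps, from -0.15 to 0.17 for Acat2, from -0.084 to 0.10 for Tmem97, from -0.21 to 0.44 for Hmgcs1, from -0.20 to 0.20 for Fdft1 and from -0.015 to 0.19 for Gsdmd. Members higher numbered 6 with RLE factors, library totals and either filter, 5 with upper-quartile factors or limma-voom and 7 with DESeq2. With all livers kept, Pmvk lost its call with upper-quartile factors, limma-voom and the block, and Sqle and Sc5d lost theirs with the block. The sizes of the falls and rises rest on 4 and 5 livers, and depth limits Mylip, Ggps1 and Fdps most.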
